A study of Mus musculus with 10 samples.

Results

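The genes described here encode subunits of the Polycomb, Trithorax, NuRD and BAF complexes and of a few related chromatin remodellers. They were chosen by name, as the rows of the deposited expression table whose symbol is on a list of 46 such genes, and all 46 were found among its 32361 rows. The list holds 7 subunits of Polycomb repressive complex 2 (PRC2), 12 of Polycomb repressive complex 1 (PRC1), 7 of Trithorax-type methyltransferase complexes, 2 demethylases of histone H3 lysine 27, 8 NuRD subunits, 5 BAF subunits and 5 genes of the TIP60-p400, INO80, CHD1 and CHD7 remodellers. RNA came from E14Tg2a.4 cells, a mouse embryonic stem (ES) cell line, sorted by fluorescence into 5 fractions with 2 libraries each. A double knock-in line, with fluorescent reporters at both Esrrb and Tbx3, was sorted into cells with both reporters off (written Esrrb-/Tbx3-), cells with only the Esrrb reporter on (Esrrb+/Tbx3-) and cells with both on (Esrrb+/Tbx3+). A second line, in which a piggyBac transposon carries a reporter under a Zscan4c promoter fragment, was sorted into cells without (Zscan4-) and with (Zscan4+) its signal. Both reporters at Esrrb and Tbx3 are thus present in all 3 fractions of the first line, and the piggyBac reporter in both fractions of the second. A promoter fragment inserted by a transposon need not follow the endogenous gene in every cell, and the labels do not say whether either line is 1 clone.

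The table gives 1 value per gene and fraction, in FPKM, fragments corrected for transcript length and for the number mapped in the library. With 1 merged value there is no SD, no p-value and no replicate check for any difference below, and the read depth behind a value is unknown. Differences are of log2(FPKM + 1), which understates the difference of genes near 1 FPKM, and the size rule for a call, in either direction, is 2-fold, with 1.5-fold as a second, looser rule. Because FPKM is per length, levels can be set side by side between genes, with limits. For the 12 members with a near-identical copy, a level depends on how shared reads were placed, and 16 members share exonic bases with another gene.

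Polycomb complexes keep developmental genes silent in ES cells. PRC2 methylates lysine 27 of histone H3 through EZH1 or EZH2, which need SUZ12 and EED, and accessory subunits such as MTF2, PHF19 and JARID2 bring it to CpG-rich promoters. PRC1 ubiquitinates histone H2A through RING1 or RNF2 paired with a PCGF protein; canonical forms carry a CBX protein that reads the lysine 27 mark and a PHC protein, while variant forms carry RYBP or YAF2. Trithorax-type KMT2 enzymes oppose Polycomb by methylating lysine 4 with a shared core of WDR5, RBBP5, ASH2L and DPY30. NuRD, BAF, INO80, TIP60-p400 and the CHD proteins use ATP to slide, evict or exchange nucleosomes, and NuRD and BAF have forms typical of ES cells.

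Promoter sequences are shown for Eed and Phf19, the members with the largest positive difference between Esrrb+/Tbx3+ and Esrrb-/Tbx3- cells, and for Bmi1, the member with the largest negative one. Kdm6a is added because its promoter was the single member promoter with the core letters that ESRRB-type nuclear receptors bind. Each run is the 250 bases before the transcription start, read 5′ to 3′ on the gene's strand, from RefSeq on GRCm38.p6. In the first 3, capitals mark CG dinucleotides.

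Eed, chr7:89980977-89981226, minus strand: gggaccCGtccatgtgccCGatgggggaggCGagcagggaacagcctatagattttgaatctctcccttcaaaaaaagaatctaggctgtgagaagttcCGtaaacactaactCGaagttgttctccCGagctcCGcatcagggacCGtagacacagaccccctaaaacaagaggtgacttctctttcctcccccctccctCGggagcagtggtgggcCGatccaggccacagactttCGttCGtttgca
Phf19, chr2:34913977-34914226, minus strand: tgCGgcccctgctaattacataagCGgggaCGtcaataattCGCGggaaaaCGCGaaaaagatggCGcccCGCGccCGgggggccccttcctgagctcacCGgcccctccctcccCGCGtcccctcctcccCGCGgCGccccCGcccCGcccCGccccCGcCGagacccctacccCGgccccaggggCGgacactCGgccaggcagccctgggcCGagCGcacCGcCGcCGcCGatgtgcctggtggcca
Bmi1, chr2:18676768-18677017, plus strand: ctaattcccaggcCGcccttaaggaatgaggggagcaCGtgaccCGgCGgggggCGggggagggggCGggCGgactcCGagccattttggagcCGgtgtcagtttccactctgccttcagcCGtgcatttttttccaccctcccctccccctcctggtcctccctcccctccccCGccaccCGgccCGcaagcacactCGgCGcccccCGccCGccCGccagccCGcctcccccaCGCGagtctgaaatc
In the Kdm6a promoter, capitals mark those core letters instead.
Kdm6a, chrX:18162325-18162574, plus strand: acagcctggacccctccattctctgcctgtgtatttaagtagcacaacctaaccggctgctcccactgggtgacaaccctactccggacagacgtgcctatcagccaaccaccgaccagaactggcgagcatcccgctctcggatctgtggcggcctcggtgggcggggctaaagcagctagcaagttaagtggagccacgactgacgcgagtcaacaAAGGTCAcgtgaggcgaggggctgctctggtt

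The 250 bases shown hold 12 CG dinucleotides at Eed, 31 at Phf19 and 21 at Bmi1, with GC contents of 54.4%, 75.2% and 70.4%. For the members as a whole, 37 of the 46 symbols had an entry in the promoter table, with 52 windows of 300 bases (250 before to 50 after the start). The members without an entry were Pcgf1, Rybp, Chd7, Kdm6b, Kmt2b, Cbx2, Hdac1, Chd1 and Ash2l. An observed-to-expected CpG ratio over 0.6 was found in 90.4% of the member windows, against 35.8% of all 32841 windows and 67.6% of the 12601 windows of symbols that passed the expression filter. The median member window held 27.5 CG dinucleotides, against 20 in windows of expressed symbols. The ESRRB-type core motif AAGGTCA, searched on both strands, was in 4.72% of all windows and in 1 of the 52 member windows, that of Kdm6a, where it begins 32 bases before the start. The T-box core motif GGTGTGA was in 3.98% of all windows and in 0 of the 52. A match of these letters is a description of the window and not evidence of binding, and the absence of one says only that these letters are not in these 300 bases.

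FPKM totals per fraction ran from 507495 to 552117. The sorted genes followed the sort labels: Esrrb stood at 43.3 FPKM in Esrrb-/Tbx3-, 177 in Esrrb+/Tbx3- and 243 in Esrrb+/Tbx3+ cells, Tbx3 at 0.638, 1.75 and 12.6, and Zscan4c at 0.255 in Zscan4- and 120 in Zscan4+ cells. All 12 listed ES cell markers were above 1 FPKM in every fraction, and a list of 2-cell-like genes with 14 rows summed to 947 FPKM in Zscan4+ cells and to 0.768 to 8.14 in the others. A fibroblast list of 13 genes summed to 1977 FPKM in Esrrb-/Tbx3- and 1401 in Esrrb+/Tbx3- cells, against 25.8 to 37.5 in the other fractions, and a T-lineage list of 13 genes summed to 566 and 411, against 25.2 to 39.0. Of these, 11 in each list reached 1 FPKM in Esrrb-/Tbx3- cells, and of both lists only Lum was at 0 anywhere, in both Zscan4 fractions. Among all rows, 859 had a profile like these markers, with at least 1 FPKM in Esrrb-/Tbx3- cells and no more than 0.25 of that level in Esrrb+/Tbx3+ and both Zscan4 fractions. They made up 2.41% of the FPKM total in Esrrb-/Tbx3-, 1.57% in Esrrb+/Tbx3- and 0.114% in Esrrb+/Tbx3+ cells. In such bulk fractions, fewer cells of a type and less RNA per cell cannot be told apart.

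The chromatin regulators were well expressed. Their median level, taken over the 5 fractions and then over the 46 genes, was 42.1 FPKM, against 10.2 for the 13595 rows that reached 1 FPKM in at least 1 fraction. All 46 passed that filter, and Cbx8 was the single member below 1 FPKM in any fraction, so it passed through the Esrrb/Tbx3 knock-in fractions where it is high. The highest median levels were those of Dpy30, the small docking subunit of the KMT2 core, at 263 FPKM, and of Phc1, a polyhomeotic subunit of PRC1, at 201 FPKM. In all, 11 members had a median of at least 100 FPKM and 38 of at least 10. The ratio of the highest to the lowest fraction had a median of 1.46 over the members, against 1.57 over all rows, where a row with a 0 counts as infinite. It was below 1.5 for 25 members (54.3%, against 45.9% of all rows), near the background. It was also below 1.5 for 68.5% of the 6843 rows with a median of at least 10 FPKM, against 65.8% of the 38 members at that level. The ratio reached 2 for 33.7% of all rows and for 6 members: Cbx8, Bmi1, Phf19, Eed, Mtf2 and Phc2, all of them Polycomb subunits.

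**Figure D1:**
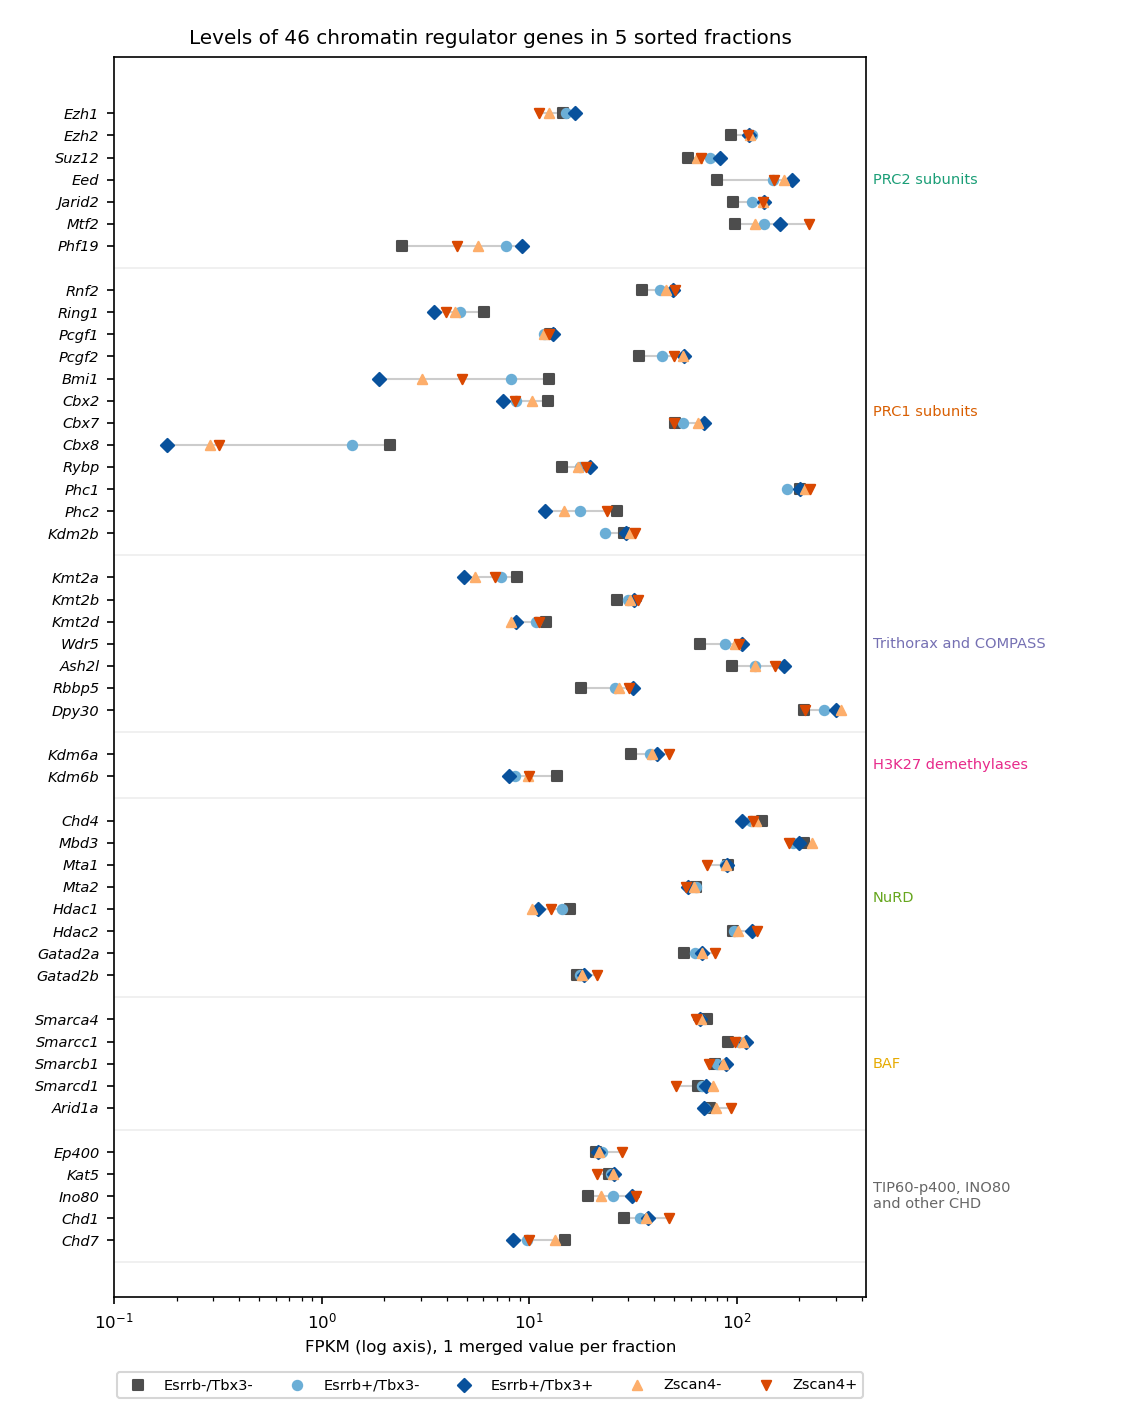
Each row is 1 of the 46 genes, grouped by complex, and each symbol is its merged FPKM value in 1 of the 5 sorted fractions on a log axis; the grey line joins the lowest and highest. Most rows are short, while Bmi1, Cbx8 and Phc2 have the Esrrb-/Tbx3- square at the right end and the Esrrb+/Tbx3+ diamond at the left, and Phf19 and Eed have them the other way round.

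Across fractions, Esrrb-/Tbx3- cells were most often at the low end. They had the lowest value for 22 of the 46 members (47.8%, against 32% of all rows) and the highest for 14 (30.4%, against 35.9%). The Esrrb+/Tbx3+ cells had the highest value for 15 members (32.6%, against 21.1% of rows) and Zscan4+ cells for 13 (28.3%, against 22%). The Esrrb+/Tbx3- fraction was the highest for 1 member, Ezh2. These ranks use unscaled values, and Esrrb-/Tbx3- cells had the lowest FPKM total, 507495, so ranks set by small differences depend on the scaling. Ep400 and Gatad2b, lowest in Esrrb-/Tbx3- cells, changed sign with it in the Esrrb+/Tbx3+ minus Esrrb-/Tbx3- comparison.

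The 4 comparisons within a reporter line called few members, and 3 of them share columns: the Esrrb step (Esrrb+/Tbx3- minus Esrrb-/Tbx3-), the Tbx3 step (Esrrb+/Tbx3+ minus Esrrb+/Tbx3-) and the Esrrb+/Tbx3+ minus Esrrb-/Tbx3- comparison use the same 3 fractions, so their values are given side by side and are not independent. In the Esrrb step, 1 member was at least 2-fold higher (Phf19), where 1.82% of all rows were, and 0 were 2-fold lower, where 1.43% of rows were. By the 1.5-fold rule, 2 were higher (Eed and Phf19; 5.1% of rows) and 1 was lower (Kdm6b; 5.49% of rows). These shares are near the background.

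In the Tbx3 step, 0 members were 2-fold higher (0.346% of rows) and 2 were 2-fold lower, Bmi1 and Cbx8 (6.94% of rows). The 1.5-fold rule left these counts as they were, at 0 higher (1.68% of rows) and 2 lower (12.4% of rows). The share of members that were lower, 4.35%, was below that of all rows under both rules. Outside the 859 rows of marker-like profile, which include Cbx8, 1 of 45 members (2.22%) and 2.11% of rows were 2-fold lower, so the members were then at the background.

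Between Esrrb+/Tbx3+ and Esrrb-/Tbx3- cells, 2 members were 2-fold higher, Eed and Phf19 (3.81% of rows), and 3 were 2-fold lower, Bmi1, Cbx8 and Phc2 (12.2% of rows). By the 1.5-fold rule 8 were higher (17.4% of the members, 9.92% of rows), namely Eed, Mtf2, Phf19, Pcgf2, Wdr5, Ash2l, Rbbp5 and Ino80. Another 8 were lower by that rule (17.4% of the members, 20.5% of rows): Ring1, Bmi1, Cbx2, Cbx8, Phc2, Kmt2a, Kdm6b and Chd7. The median difference over members was 0.15, against -0.02 over all rows.

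The Zscan4 sort, Zscan4+ minus Zscan4-, called no member at 2-fold: 0 were higher (3.46% of rows) and 0 were lower (0.875% of rows). By the 1.5-fold rule 2 were higher, Mtf2 and Phc2 (7.61% of rows), and 0 were lower (3.59% of rows). The median difference over members was 0.06, against -0.01 over all rows.

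**Figure D2:**
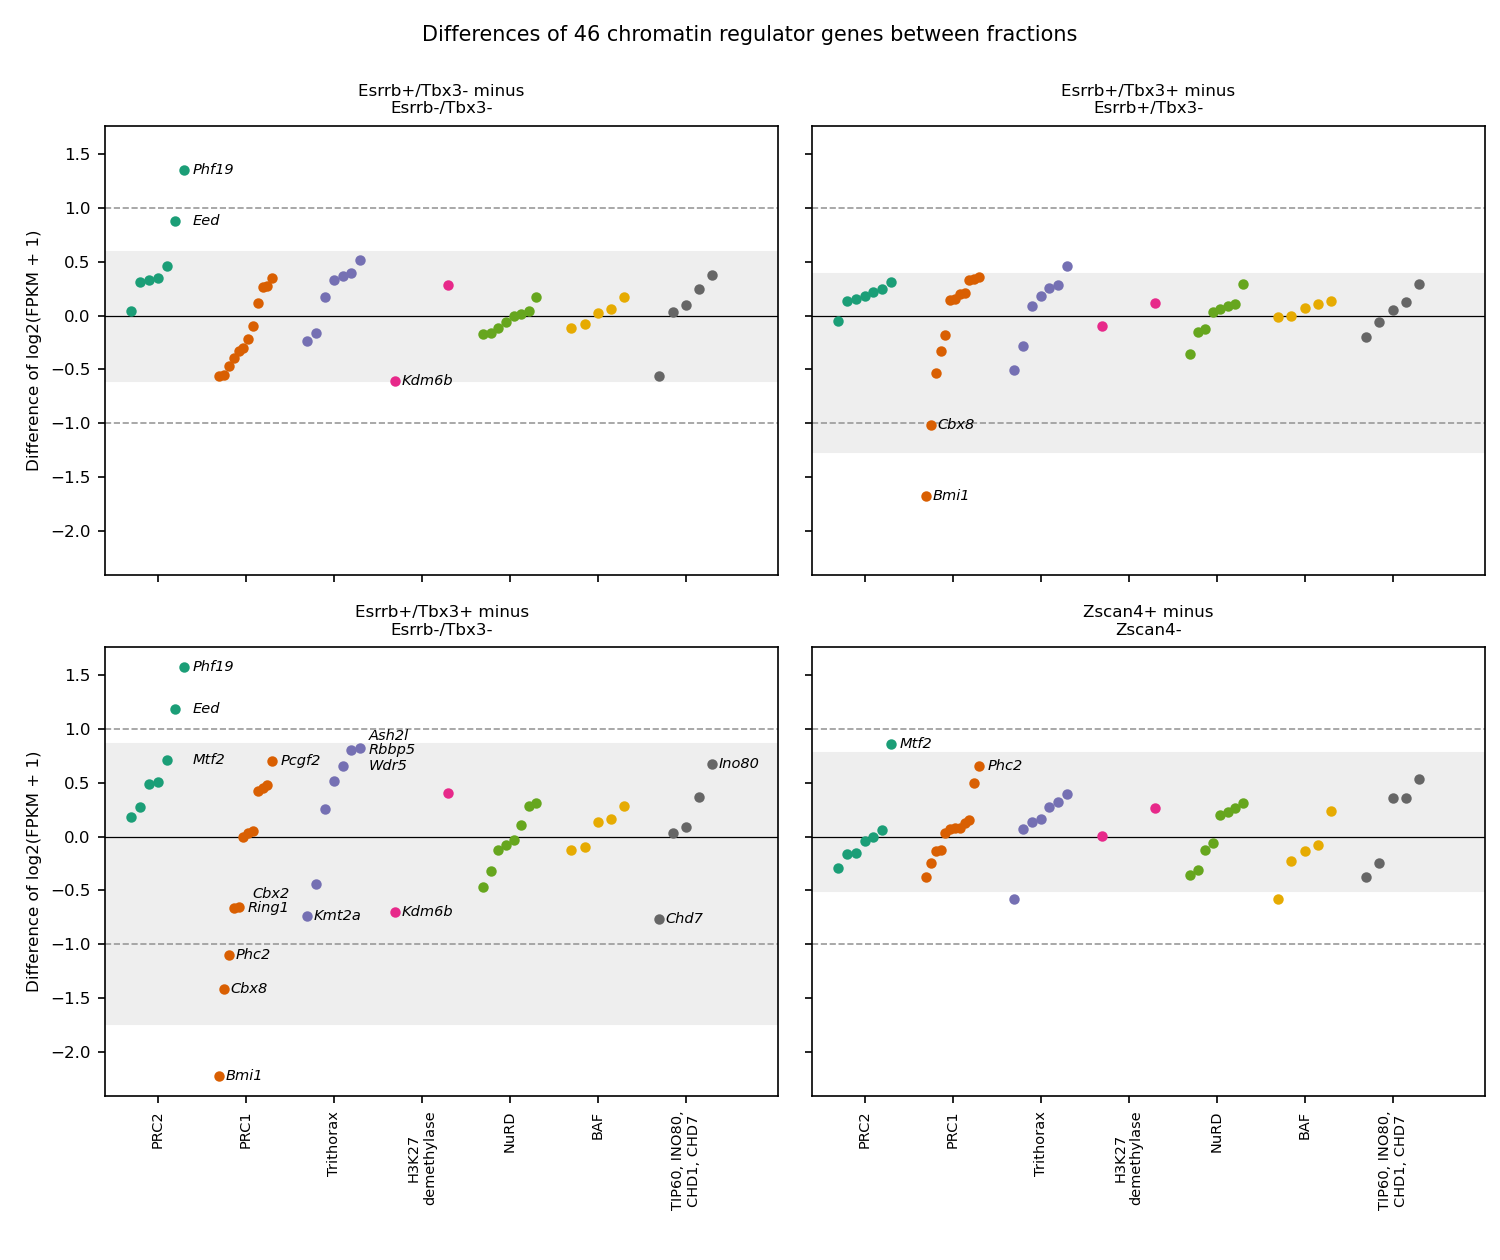
Each panel is 1 comparison and each point 1 of the 46 genes, placed by complex along the horizontal axis and by its difference of log2(FPKM + 1) on the vertical axis; dashed lines mark 2-fold, and the grey band spans the 5th to the 95th percentile of all 13595 rows. Phf19 and Eed lie above the upper line and Bmi1, Cbx8 and Phc2 below the lower one in the Esrrb+/Tbx3+ minus Esrrb-/Tbx3- panel, and no point passes either line in the Zscan4 panel.

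All 7 listed PRC2 subunits were higher in Esrrb+/Tbx3+ than in Esrrb-/Tbx3- cells, and were so under every scaling tried. Their median difference was 0.50, with a range of 0.18 to 1.57, against a median of -0.02 over all rows. All 7 were also higher in Esrrb+/Tbx3- than in Esrrb-/Tbx3- cells, with a median of 0.35, against -0.02 over all rows. However, Ezh1 turned below 0 there when the fractions were set to equal totals without the 859 rows above. The summed level of the 7 was 442 FPKM in Esrrb-/Tbx3-, 617 in Esrrb+/Tbx3- and 702.5 in Esrrb+/Tbx3+ cells. This order is not particular to PRC2. The 12 listed ES cell markers, which include the sorted gene Esrrb, summed to 4596, 5892 and 7437 FPKM in the same fractions. Of these markers, 11 were above 0 between Esrrb+/Tbx3+ and Esrrb-/Tbx3- cells, with a median of 0.92. In the Zscan4 sort, by contrast, 5 of the 7 PRC2 subunits were below 0, with a median of -0.04, against -0.01 over all rows. The direction did not extend to all genes of the complex. Of the 6 further PRC2 genes that passed the filter, 4 were above 0 and 2 below between Esrrb+/Tbx3+ and Esrrb-/Tbx3- cells, with a median of 0.14, and 3 were on each side when totals were set equal without the 859 rows. Rbbp7, a histone-binding core subunit, had 158, 155 and 132 FPKM in the Esrrb-/Tbx3-, Esrrb+/Tbx3- and Esrrb+/Tbx3+ fractions, a difference of -0.26, and Lcorl, an accessory subunit, had a difference of -0.24. Rbbp4, the paralogue of Rbbp7, had a difference of 0.22 and Aebp2, a further accessory subunit, one of 0.54.

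Eed, the WD40 subunit that binds methylated lysine 27 and stimulates the enzyme, had 80.5 FPKM in Esrrb-/Tbx3-, 149 in Esrrb+/Tbx3-, 185 in Esrrb+/Tbx3+, 169 in Zscan4- and 151 in Zscan4+ cells. The Esrrb-/Tbx3- value stands apart from the other 4. Its differences were 0.88 in the Esrrb step, 0.31 in the Tbx3 step, 1.19 between Esrrb+/Tbx3+ and Esrrb-/Tbx3- cells, a level ratio of 2.30, and -0.16 in the Zscan4 sort. Exons of E230029C05Rik on the opposite strand overlap 6.82% of Eed's exonic bases, and whether the counting used strand is not given in the sources used here.

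Phf19, a Polycomb-like accessory subunit with a Tudor domain, was the lowest PRC2 member throughout, at 2.44 FPKM in Esrrb-/Tbx3-, 7.76 in Esrrb+/Tbx3-, 9.23 in Esrrb+/Tbx3+, 5.68 in Zscan4- and 4.47 in Zscan4+ cells. Here too the Esrrb-/Tbx3- fraction was the lowest, and both fractions of the Zscan4 line lay between it and the Esrrb+/Tbx3- fraction. The differences were 1.35 in the Esrrb step, 0.22 in the Tbx3 step and 1.57 between Esrrb+/Tbx3+ and Esrrb-/Tbx3- cells, a level ratio of 3.78. In the Zscan4 sort the difference was -0.29.

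Mtf2, the Polycomb-like subunit that binds unmethylated CpG-rich DNA, was the most abundant of that family in all 5 fractions. It had 97.6 FPKM in Esrrb-/Tbx3-, 135 in Esrrb+/Tbx3-, 161 in Esrrb+/Tbx3+, 122 in Zscan4- and 223 in Zscan4+ cells. The Zscan4+ value was the highest, and its difference from Zscan4- cells, 0.86, was the largest positive one of the 46 members in that sort. Between Esrrb+/Tbx3+ and Esrrb-/Tbx3- cells the difference was 0.72. Exons of Tmed5 on the opposite strand overlap 6.93% of Mtf2's exonic bases, and a copy of Mtf2, Gm49301, is 91.8% identical over 329 bases. Of the summed FPKM of Mtf2, Phf19 and their paralogue Phf1, Mtf2 made up 91.0% to 96.3%, while the share of Phf19 was 2.33% in Esrrb-/Tbx3-, 5.25% in Esrrb+/Tbx3+ and 1.93% in Zscan4+ cells.

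The catalytic and scaffold subunits moved less. Ezh2, the main lysine 27 methyltransferase of dividing cells, had 93.6 FPKM in Esrrb-/Tbx3- cells and, in the order used above, 118, 114, 116 and 113 in the others. Its paralogue Ezh1, typical of non-dividing cells, had 14.5, 15.0, 16.6, 12.5 and 11.1 FPKM in the 5 fractions, so that Ezh2 made up 86.6% to 91.0% of the pair. Suz12, the scaffold of the complex, ran from 58.0 to 82.6 FPKM and Jarid2, a DNA-binding accessory subunit, from 95.5 to 134 FPKM, both with the lowest value in Esrrb-/Tbx3- and the highest in Esrrb+/Tbx3+ cells.

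PRC1 was mixed, with paralogues on opposite sides. Between Esrrb+/Tbx3+ and Esrrb-/Tbx3- cells 6 of the 12 subunits were above 0 and 6 below, with a median difference of 0.01. The 3 members near 0, Phc1, Pcgf1 and Kdm2b, changed sign with the scaling. The 5 that were lower by the 1.5-fold rule, Bmi1, Cbx8, Phc2, Ring1 and Cbx2, each had a more abundant paralogue (Pcgf2, Cbx7, Phc1 or Rnf2) that was higher or within 0.01 of level.

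Bmi1 (Pcgf4), a PCGF subunit of canonical PRC1 best known from adult stem cells and fibroblasts, had 12.4 FPKM in Esrrb-/Tbx3-, 8.19 in Esrrb+/Tbx3-, 1.88 in Esrrb+/Tbx3+, 3.05 in Zscan4- and 4.73 in Zscan4+ cells. Its levels thus ran downward from Esrrb-/Tbx3- to Esrrb+/Tbx3+ cells, and both Zscan4 fractions lay between the Esrrb+/Tbx3- and Esrrb+/Tbx3+ values. The differences were -0.55 in the Esrrb step, -1.67 in the Tbx3 step and -2.22 between Esrrb+/Tbx3+ and Esrrb-/Tbx3- cells, a 6.61-fold lower level. It was the largest negative difference of the 46 members in both of the last 2 comparisons. In the Zscan4 sort the difference was 0.50.

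Pcgf2 (Mel18), the paralogue of Bmi1 used by canonical PRC1 in ES cells, went the other way. It had 33.9 FPKM in Esrrb-/Tbx3-, 43.4 in Esrrb+/Tbx3-, 55.8 in Esrrb+/Tbx3+, 54.8 in Zscan4- and 49.8 in Zscan4+ cells, a difference of 0.70 between Esrrb+/Tbx3+ and Esrrb-/Tbx3- cells. Pcgf1, the PCGF protein of the variant complex with KDM2B, was level at 12.6, 11.7, 13.1, 11.8 and 12.4 FPKM in the same order. Of the summed FPKM of these 3 genes, Bmi1 made up 21.2% in Esrrb-/Tbx3-, 12.9% in Esrrb+/Tbx3-, 2.67% in Esrrb+/Tbx3+, 4.38% in Zscan4- and 7.05% in Zscan4+ cells. A copy of Bmi1, Gm5946, is 97.0% identical to it over 2658 bases, so the FPKM of Bmi1 depends on how reads that fit both were placed. Pcgf1 has a copy too, Gm8930, 97.5% identical over 764 bases, and the same limit holds for it.

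Cbx8, a chromodomain subunit of canonical PRC1, had 2.14 FPKM in Esrrb-/Tbx3-, 1.39 in Esrrb+/Tbx3-, 0.179 in Esrrb+/Tbx3+, 0.289 in Zscan4- and 0.321 in Zscan4+ cells. It is the single member with the marker-like profile of the 859 rows. The differences were -0.39 in the Esrrb step, -1.02 in the Tbx3 step, just past the 2-fold rule, and -1.41 between Esrrb+/Tbx3+ and Esrrb-/Tbx3- cells. In levels the last is 11.95-fold, although it rests on values below 1 FPKM.

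Cbx7, the main CBX protein of ES cells, stood at 50.4, 54.8, 69.5, 65.0 and 49.9 FPKM in the order used above, with the highest value in Esrrb+/Tbx3+ and the lowest in Zscan4+ cells. Cbx2, which has a domain that compacts chromatin, had 12.4 FPKM in Esrrb-/Tbx3-, 8.64 in Esrrb+/Tbx3-, 7.50 in Esrrb+/Tbx3+, 10.3 in Zscan4- and 8.51 in Zscan4+ cells, a difference of -0.65 between Esrrb+/Tbx3+ and Esrrb-/Tbx3- cells. Of the summed FPKM of Cbx2, Cbx7 and Cbx8, Cbx7 made up 77.7% in Esrrb-/Tbx3- and 90.04% in Esrrb+/Tbx3+ cells. Cbx2 and Cbx8 are neighbours on chromosome 11, within 119023029 to 119040913 of mm10 in the deposited coordinates.

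Phc2, a polyhomeotic subunit whose SAM domain polymerises, had 26.5 FPKM in Esrrb-/Tbx3-, 17.6 in Esrrb+/Tbx3-, 11.8 in Esrrb+/Tbx3+, 14.7 in Zscan4- and 23.8 in Zscan4+ cells. It was high at both the Esrrb-/Tbx3- and the Zscan4+ end, with differences of -1.10 between Esrrb+/Tbx3+ and Esrrb-/Tbx3- cells and 0.66 in the Zscan4 sort. Phc1, its abundant paralogue, stayed between 173 and 225 FPKM, and the share of Phc2 in the pair was 11.6% in Esrrb-/Tbx3-, 5.59% in Esrrb+/Tbx3+ and 9.55% in Zscan4+ cells.

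Rnf2 (Ring1b), the main ubiquitin ligase of PRC1 in ES cells, had 34.9 FPKM in Esrrb-/Tbx3-, 42.6 in Esrrb+/Tbx3-, 49.0 in Esrrb+/Tbx3+, 45.3 in Zscan4- and 50.5 in Zscan4+ cells. Ring1, the second ligase, had 6.08 FPKM in Esrrb-/Tbx3-, 4.63 in Esrrb+/Tbx3-, 3.48 in Esrrb+/Tbx3+, 4.40 in Zscan4- and 3.95 in Zscan4+ cells, a difference of -0.66 between Esrrb+/Tbx3+ and Esrrb-/Tbx3- cells. Rnf2 therefore made up 85.2% of the pair in Esrrb-/Tbx3- and 93.4% in Esrrb+/Tbx3+ cells. Rybp, the variant subunit, ranged from 14.4 to 19.6 FPKM and Kdm2b, which brings variant PRC1 to CpG islands, from 23.0 to 32.2 FPKM.

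**Figure D3:**
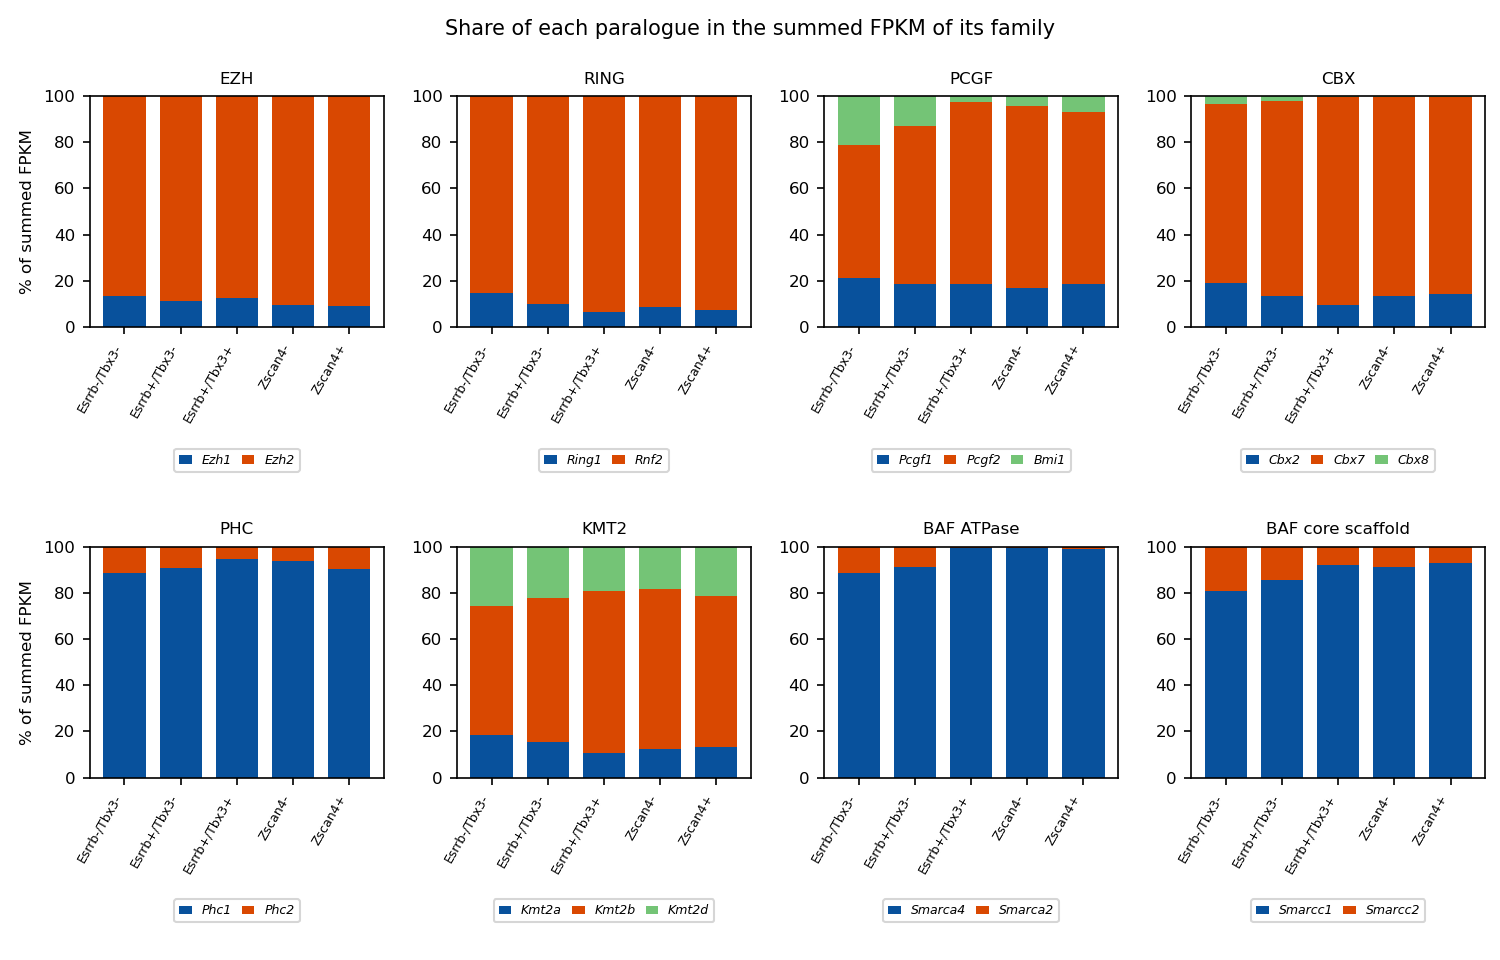
Each panel is 1 family of paralogues and each stacked bar 1 sorted fraction; the height of a colour is that gene's percentage of the summed FPKM of the family (merged values, no error bars). Bmi1, Cbx8, Phc2, Smarca2 and Smarcc2 take their largest shares in Esrrb-/Tbx3- cells, Bmi1 with 21.2% of its family there and 2.67% in Esrrb+/Tbx3+ cells.

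Among the Trithorax-type genes the shared core and the large enzymes differed in direction. The 4 core subunits were all higher in Esrrb+/Tbx3+ than in Esrrb-/Tbx3- cells, under every scaling. Of the 3 enzymes, Kmt2b was higher as well, and Kmt2a and Kmt2d were lower. The median over the 7 genes was 0.52, against -0.02 over all rows, and 5 were above 0.

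Ash2l, the core subunit that binds DPY30, had 94.5 FPKM in Esrrb-/Tbx3-, 122 in Esrrb+/Tbx3-, 168 in Esrrb+/Tbx3+, 122 in Zscan4- and 153 in Zscan4+ cells. Its difference between Esrrb+/Tbx3+ and Esrrb-/Tbx3- cells was 0.83. Rbbp5, which holds the core to the enzyme, had 17.7, 25.8, 31.6, 26.9 and 30.2 FPKM in the same order, a difference of 0.80. Wdr5, the WD40 subunit that binds the enzyme's WIN motif, had 66.4, 88.0, 106, 97.9 and 103 FPKM in the same order, a difference of 0.66. For all 3 genes the Esrrb-/Tbx3- fraction was the lowest and the Esrrb+/Tbx3+ fraction the highest.

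Dpy30 had 209 FPKM in Esrrb-/Tbx3-, 263 in Esrrb+/Tbx3-, 300 in Esrrb+/Tbx3+, 316 in Zscan4- and 212 in Zscan4+ cells. It was the core subunit with a negative difference in the Zscan4 sort, -0.58, just short of the 1.5-fold rule. The other 3 core subunits had differences of 0.07 to 0.32 in that sort.

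Kmt2a (Mll1), the enzyme known from Hox gene control and leukaemia, had 8.73 FPKM in Esrrb-/Tbx3-, 7.29 in Esrrb+/Tbx3-, 4.82 in Esrrb+/Tbx3+, 5.49 in Zscan4- and 6.84 in Zscan4+ cells. Its difference between Esrrb+/Tbx3+ and Esrrb-/Tbx3- cells was -0.74, and that of Kmt2d (Mll4), the enhancer enzyme, was -0.44. Kmt2d had 12.1, 10.7, 8.62, 8.18 and 11.1 FPKM in the same order, lowest in Esrrb+/Tbx3+ and Zscan4- cells. Kmt2b (Mll2), which methylates bivalent promoters in ES cells, had 26.5, 29.9, 31.8, 30.5 and 33.5 FPKM, and its share of the 3 enzymes was 56.0% in Esrrb-/Tbx3- and 70.3% in Esrrb+/Tbx3+ cells. The Kmt2b row covers 230808 bases in the deposited coordinates, against 19869 in GENCODE M21, so reads of neighbouring genes in its value cannot be told apart.

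The lysine 27 demethylases also went apart. Kdm6a (Utx), the X-linked form whose promoter is shown above, had 31.0 FPKM in Esrrb-/Tbx3-, 37.9 in Esrrb+/Tbx3-, 41.3 in Esrrb+/Tbx3+, 38.8 in Zscan4- and 46.9 in Zscan4+ cells, with differences of 0.28 in the Esrrb step and 0.12 in the Tbx3 step. Kdm6b (Jmjd3), an inducible form, had 13.6 FPKM in Esrrb-/Tbx3-, 8.55 in Esrrb+/Tbx3-, 7.96 in Esrrb+/Tbx3+, 9.88 in Zscan4- and 9.94 in Zscan4+ cells. Its value was high in Esrrb-/Tbx3- cells and similar in the other 4, with differences of -0.61 in the Esrrb step and -0.70 between Esrrb+/Tbx3+ and Esrrb-/Tbx3- cells. The share of Kdm6b in the pair was 30.5% in Esrrb-/Tbx3- cells and 16.2% to 20.3% elsewhere.

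None of the listed NuRD subunits reached 1.5-fold in any comparison. Median differences over the 8 genes were -0.03 in the Esrrb step, 0.04 in the Tbx3 step, -0.05 between Esrrb+/Tbx3+ and Esrrb-/Tbx3- cells and 0.07 in the Zscan4 sort. The summed level lay between 646 and 702 FPKM in all 5 fractions. Chd4, the remodelling ATPase, ran from 105 FPKM in Esrrb+/Tbx3+ to 131 in Esrrb-/Tbx3- cells. Mbd3, the methyl-CpG-binding family member whose loss leaves ES cells unable to commit, had 179 to 230 FPKM. The paired deacetylases had opposite signs between Esrrb+/Tbx3+ and Esrrb-/Tbx3- cells, Hdac1 at -0.47 and Hdac2 at 0.31, and Hdac2 made up 85.9% to 91.5% of their sum. In the order used above, Hdac1 had 15.6, 14.4, 11.0, 10.3 and 12.7 FPKM and Hdac2 had 95.4, 96.6, 118, 101 and 125 FPKM. Hdac1 has 3 copies, with identities of up to 99.4% and a best-scoring match of 1444 bases, so its level depends on how shared reads were placed. Of the MTA subunits, which hold the deacetylases, Mta1 had 90.9, 87.3, 89.2, 89.0 and 71.8 FPKM, lowest in Zscan4+ cells. Mta2 was level at 63.4, 63.2, 58.0, 62.2 and 57.1 FPKM. Of the GATA zinc finger subunits, Gatad2a had 55.6, 62.7, 67.9, 67.6 and 78.1 FPKM and Gatad2b 17.0, 17.6, 18.4, 17.9 and 21.2 FPKM, both highest in Zscan4+ cells.

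The listed BAF subunits were as level as the listed NuRD ones. The 5 genes summed to 380 to 416 FPKM, and no difference reached 1.5-fold. Smarca4 (Brg1), the ATPase of the ES cell form, ran from 63.8 to 71.9 FPKM, and its alternative Smarca2 (Brm), which is not on the list of 46, had 9.14 FPKM in Esrrb-/Tbx3-, 6.55 in Esrrb+/Tbx3- and 0.542 in Esrrb+/Tbx3+ cells. Smarca4 was thus 88.7% of the 2 ATPases in Esrrb-/Tbx3- and 99.2% in Esrrb+/Tbx3+ cells. Smarcc1 (Baf155), the scaffold typical of ES cells, ran from 90.6 FPKM in Esrrb-/Tbx3- to 110 in Esrrb+/Tbx3+ cells, while its alternative Smarcc2 (Baf170) went from 21.6 to 9.85 FPKM. Smarcd1 (Baf60a) had its lowest value, 50.6 FPKM, in Zscan4+ cells, with a difference of -0.58 in that sort, and 64.8 to 76.4 FPKM elsewhere. Arid1a (Baf250a) had its highest, 94.0 FPKM, in the same fraction, against 69.6 to 79.4 elsewhere, and Smarcb1 (Snf5) ranged from 73.3 to 88.4 FPKM.

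The remaining 5 listed remodeller genes had the highest median of the groups in the Zscan4 sort, 0.36, with 3 above 0 and 2 below. Among 21 further genes of the TIP60, SRCAP and INO80 complexes, 10 were above 0 and 11 below in that sort, with a median of -0.003. Ino80, the ATPase of the complex of that name, had 19.2 FPKM in Esrrb-/Tbx3-, 25.3 in Esrrb+/Tbx3-, 31.3 in Esrrb+/Tbx3+, 22.3 in Zscan4- and 32.6 in Zscan4+ cells. Its value was high in Esrrb+/Tbx3+ and Zscan4+ cells, with differences of 0.67 from Esrrb-/Tbx3- and 0.53 from Zscan4- cells. Chd1, which keeps ES cell chromatin open, ran from 28.5 FPKM in Esrrb-/Tbx3- to 47.3 in Zscan4+ cells. Ep400 and Kat5 (Tip60), the ATPase and acetyltransferase of TIP60-p400, had opposite signs in the Zscan4 sort, 0.36 and -0.24, on levels of 20.8 to 27.9 and 21.3 to 25.7 FPKM.

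Chd7, mutated in CHARGE syndrome and bound at enhancers in ES cells, had 14.8 FPKM in Esrrb-/Tbx3-, 9.76 in Esrrb+/Tbx3-, 8.35 in Esrrb+/Tbx3+, 13.2 in Zscan4- and 9.95 in Zscan4+ cells. The Esrrb-/Tbx3- and Zscan4- fractions were the 2 high ones. The differences were -0.56 in the Esrrb step, -0.76 between Esrrb+/Tbx3+ and Esrrb-/Tbx3- cells and -0.38 in the Zscan4 sort.

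Fibroblast and T-lineage markers with at least 1 FPKM in Esrrb-/Tbx3- cells were lower in Esrrb+/Tbx3+ cells, as were 8 members by the 1.5-fold rule. The 11 fibroblast markers above 1 FPKM had Esrrb+/Tbx3- levels of 0.683 to 0.736 of the Esrrb-/Tbx3- level, with a median of 0.710, the 11 T-lineage markers 0.656 to 1.15, with a median of 0.729, and the 859 rows of like profile a median of 0.695. Hprt, which the E14Tg2a line lacks in working form, had 28.0, 19.3 and 0.954 FPKM in the Esrrb-/Tbx3-, Esrrb+/Tbx3- and Esrrb+/Tbx3+ fractions. For the members the median of this ratio was 1.03. For the 8 that were lower by the 1.5-fold rule it was 0.63 for Kdm6b, 0.65 for Cbx8, 0.66 for Bmi1, Chd7 and Phc2, 0.70 for Cbx2, 0.76 for Ring1 and 0.83 for Kmt2a. Of the 8, 1 lay within the narrow range of the fibroblast markers, 5 below it and 2 above it. Most of the 859 rows lay between 0.377 and 0.874, a wider range that holds all 8. In Esrrb+/Tbx3+ cells the fibroblast markers had 0.0124 to 0.0789 of the Esrrb-/Tbx3- level. The 11 T-lineage markers were spread more widely, from 0.01245 for Gzma to 0.749 for Cd2, with Lck at 0.316. Among the 8 members the same ratio was 0.08 for Cbx8, 0.15 for Bmi1, 0.45 for Phc2 and 0.55 for Kmt2a. For Chd7, Ring1, Kdm6b and Cbx2 it was 0.56, 0.57, 0.59 and 0.61. The part of fibroblast and T-lineage RNA in the differences of these members was not tested. Outside the 859 rows, and so without Cbx8, 1 of 45 members was 2-fold lower in the Tbx3 step, as given above, and 2 (4.44%, against 6.52% of rows) were between Esrrb+/Tbx3+ and Esrrb-/Tbx3- cells. Leaving those rows out was chosen after their values were seen.

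**Figure D4:**
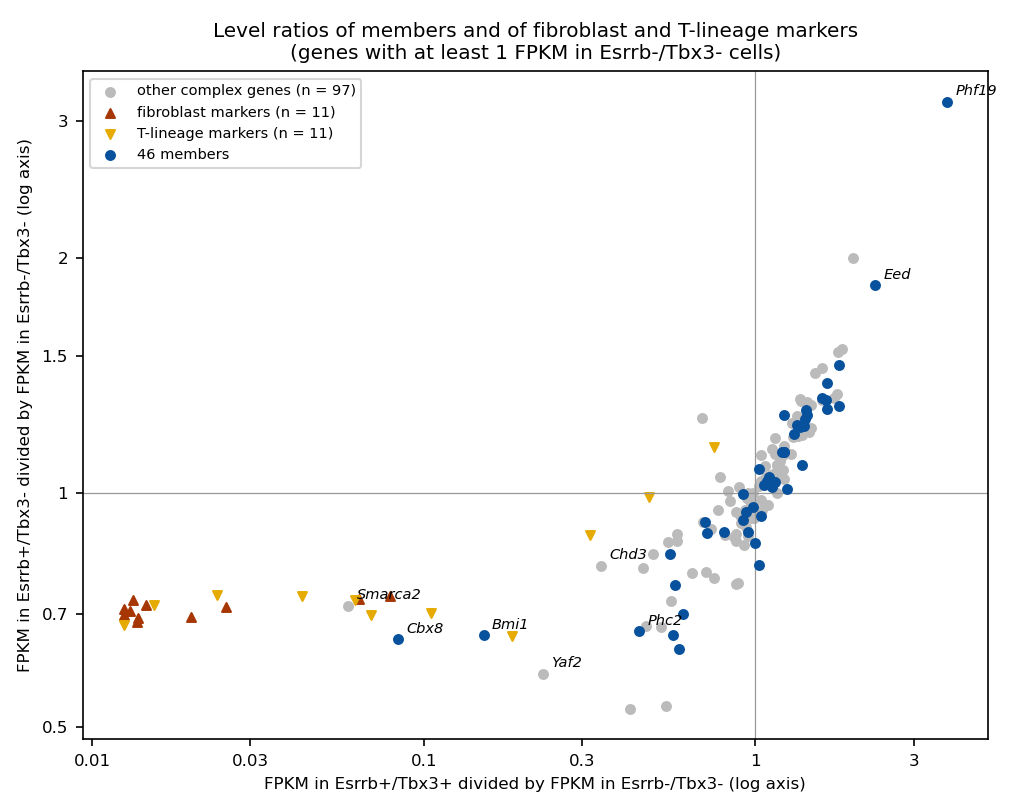
Each point is a gene with at least 1 FPKM in Esrrb-/Tbx3- cells, placed by its Esrrb+/Tbx3+ level (horizontal, log axis) and its Esrrb+/Tbx3- level (vertical, log axis), both divided by the same Esrrb-/Tbx3- level. Most of the 46 members (blue) lie near 1 on both axes, and Phf19 and Eed lie at the upper right. Bmi1, Cbx8 and the non-member gene Smarca2 lie at the left, at horizontal values of 0.15, 0.08 and 0.06. Their vertical values are 0.66, 0.65 and 0.72. Fibroblast markers (red) lie at 0.0124 to 0.0789 horizontally and 0.683 to 0.736 vertically, and T-lineage markers (yellow) at 0.01245 to 0.749 horizontally.

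The other genes of these complexes were taken from a list of 104 symbols, of which 100 passed the expression filter. In the Esrrb step 0 were 2-fold higher (1.82% of all rows) and 0 lower (1.43% of all rows). In the Tbx3 step 0 were higher (0.346% of all rows) and 4 lower (6.94% of all rows), among them Chd3, Smarca2 and Yaf2. Between Esrrb+/Tbx3+ and Esrrb-/Tbx3- cells 0 were higher (3.81% of all rows) and 5 lower (12.2% of all rows), among them Chd3, Smarca2, Yaf2 and Smarcc2. Smarca2 is among the 859 rows of marker-like profile. Chd3, the alternative NuRD ATPase, had 17.9, 14.5 and 6.14 FPKM in the Esrrb-/Tbx3-, Esrrb+/Tbx3- and Esrrb+/Tbx3+ fractions, and Yaf2, the alternative to Rybp, had 9.20, 5.39 and 2.11 FPKM. In the Zscan4 sort 1 was higher (3.46% of all rows), Dpf3, a BAF subunit of muscle and heart, and 0 were lower (0.875% of all rows). Dpf3 had 0.144 FPKM in Zscan4- and 1.92 in Zscan4+ cells. It reached 1 FPKM in Zscan4+ cells only, so it had to be higher there.

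Known Polycomb targets were also listed, as 42 developmental regulators, of which 17 reached 1 FPKM in a fraction. In the Esrrb step 1 was 2-fold higher, Bmp4 (1.82% of all rows), and 3 were lower, Wt1 and Cdkn1c among them (1.43% of all rows). Between Esrrb+/Tbx3+ and Esrrb-/Tbx3- cells 2 were higher, Bmp4 and Pax6 (3.81% of all rows), and 9 lower, where 12.2% of all rows were. Among the lower ones were Cdkn1c, Wt1, Gata3 and Hoxa2. The filter bears on this count, since 5 of the 17, Hoxa2, Gata3, Msx1, Dlx5 and Irx3, reached 1 FPKM only in Esrrb-/Tbx3- or Esrrb+/Tbx3- cells and had to be lower in Esrrb+/Tbx3+ cells than where they passed. Of the other 12 targets, 2 were higher and 4 lower, and the share of all rows under the same restriction was not computed. Bmp4, a signalling ligand, had 7.21 FPKM in Esrrb-/Tbx3- and 36.2 in Esrrb+/Tbx3+ cells. Cdkn1c, an imprinted cell cycle inhibitor, had 72.5 FPKM in Esrrb-/Tbx3-, 19.3 in Esrrb+/Tbx3-, 24.7 in Esrrb+/Tbx3+, 52.4 in Zscan4- and 28.5 in Zscan4+ cells. Gata3 had 6.42, 4.49 and 0.251 FPKM in the 3 knock-in fractions. In the Tbx3 step 0 targets were higher (0.346% of all rows) and 3 lower (6.94% of all rows), Gata3, Hoxa2 and Dlx5. All 3, and Irx3 too, are among the 859 rows of marker-like profile. Of the 13 targets outside it 0 were lower in that step, where 2.11% of rows outside it were. Lastly, in the Zscan4 sort 0 targets were higher (3.46% of all rows) and 1, Wt1, was lower (0.875% of all rows).

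The Esrrb+/Tbx3+ and Zscan4- cells come from different reporter lines and different gates, and line and gate cannot be told apart. Set side by side, 0 members were 2-fold higher in Esrrb+/Tbx3+ cells (0.743% of rows) and 0 lower (0.816% of rows). By the 1.5-fold rule 1 was higher, Phf19, with a difference of 0.61 (3.88% of rows), and 1 was lower, Chd7, with -0.61 (3.02% of rows). Of the 100 other complex genes 1 passed 2-fold: Uty, the Y-linked paralogue of Kdm6a, had 0.898, 0.582 and 0.0104 FPKM in the 3 fractions of the knock-in line and 10.1 and 10.8 FPKM in the Zscan4 line. Uty reached 1 FPKM in the Zscan4 line only, so it passed the filter through the fractions where it is high.

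Column scaling moved the Esrrb+/Tbx3+ minus Esrrb-/Tbx3- comparison as a whole. With equal FPKM totals the median of all rows there went from -0.02 to -0.12, and that of the members from 0.15 to 0.03, so the members stayed above all rows by a like amount. Across the scalings tried, 9 members changed sign in that comparison, all with a main difference of 0.13 or less in size. None of the 16 members given above with values in all 5 fractions and a 1.5-fold difference was among them, although Kdm6b, at 0.01 in the Zscan4 sort, changed sign there with equal totals.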

How the data were processed

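RNA-seq was made from 10 libraries, 2 for each of 5 sorted fractions, with a Qiagen RNeasy kit and the NEBNext Ultra RNA kit, per the labels' protocols. The submitters' processing notes name Cuffdiff 2.2.1, Cufflinks, TopHat2 2.0.14 and bcl2fastq 1.8.4, and mouse build mm10. The authors deposited FPKM values, 1 per row and fraction, with both libraries merged. How they were merged and normalized, and on which annotation, is not given in the sources used here. The series' design text says that biological replicates were collected on different days, but no value per library was used here.

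The members and the gene lists were chosen with earlier results of these data known. Differences of log2(FPKM + 1) were computed for rows whose highest value reached 1 FPKM, and called at 2-fold or 1.5-fold. All members were named, with values in all fractions for those past 1.5-fold in a comparison within a line and for paralogue groups. Up to 5 genes of each other list past 2-fold were named, by level, and some that this rule picked are not reported here. Genes named beyond this, such as Uty, Phf1 and Hprt, and the promoters shown were chosen after their values were seen. Coordinates are those of the deposited table, with starts written from 1, and overlaps and copies come from GENCODE M21 with blastn 2.17.0 (at least 90% identity over 300 bases, or 50 shared exonic bases). Of the 46 members, 12 have such a copy and 16 such an overlap. Promoters are from RefSeq on GRCm38.p6. Computations used Python 3.11.15, pandas 2.3.3, numpy 2.4.6 and matplotlib 3.10.9, and were checked on simulated data. A replicate test that had been planned could not be run on merged values.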

Additional observations from a re-analysis of the deposited data

How the results depend on the processing

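No paired analysis was possible because each column is 1 merged value per fraction, and leaving out a replicate was not run for the same reason. Of 116 values of the counts and medians under the alternatives, 103 stayed within 1.5 times the count or 0.1 of the median. With a pseudocount of 5 FPKM, 0 members were 2-fold higher in the Esrrb step, 0 were lower in the Tbx3 step, and 1 was higher and 1 lower between Esrrb+/Tbx3+ and Esrrb-/Tbx3- cells, namely Eed and Bmi1. That pseudocount shrinks differences at low levels. The calls of Phf19, Bmi1 and Cbx8 in the 2 steps were lost under it, as were those of Phf19, Cbx8 and Phc2 between Esrrb+/Tbx3+ and Esrrb-/Tbx3- cells. With a filter of 5 FPKM, or without the member of the marker-like profile (added after seeing the data), 1 was lower in the Tbx3 step. The 1.5-fold rule gave 2 higher and 1 lower in the Esrrb step, 8 and 8 between Esrrb+/Tbx3+ and Esrrb-/Tbx3- cells, and 2 higher in the Zscan4 sort. The median over members between Esrrb+/Tbx3+ and Esrrb-/Tbx3- cells was 0.0298 with equal totals and -0.00341 with equal totals outside the 859 rows, where the median of all rows was -0.12 and -0.15. A median of all 46 members this near 0 has no direction. For the 16 members past 1.5-fold in a comparison, 552 of 568 values moved by less than 0.2, and the other 16 moved by more, all under another pseudocount. No difference past 1.5-fold turned sign, and 2 of the 568 values did, both for Kdm6b in the Zscan4 sort (0.01 as reported, -0.04 with either scaling to equal totals). Depth is unknown, so values below 1 FPKM, such as those of Cbx8, have no stated precision.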
